A study of Mus musculus with 6 samples.

Results

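The chemokine genes described here are Cxcl1, Cxcl2, Cxcl3, Cxcl5, Cxcl14, Cxcl16, Ccl20, Ccl2 and Cx3cl1, 9 of the 19739 genes in the deposited table. They were chosen by gene symbol as chemokines that epithelial cells can make, with their differences between EFNA3 and control libraries already known. Those differences are therefore given as a description, and no test of them stands as support. The 3 EFNA3 libraries came from wild-type mouse mammary luminal cells that received EFNA3 protein in serum-free medium, at a dose of 1 µg/ml and over 24 hours, and the 3 control libraries from the same kind of cells with 0 µg/ml. All cells had been purified by flow cytometry, grown with FBS, EGF, FGF2, heparin and the ROCK inhibitor Y-27632, and starved of serum for 12 hours before the treatment. EFNA3 is ephrin-A3, a ligand of Eph receptors that normally sits on the cell membrane and was added here as a protein, whose form the labels do not give.

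Chemokines are small secreted or membrane-held proteins that bind G protein-coupled receptors and direct the movement of leukocytes. In epithelia, many of them are induced through NF-kB downstream of interleukin-1, tumour necrosis factor, interleukin-17 and Toll-like receptors. Cxcl1, Cxcl2, Cxcl3 and Cxcl5 share a Glu-Leu-Arg motif before their CXC cysteines and draw neutrophils through the receptor Cxcr2. Ccl2 draws monocytes through Ccr2, and Ccl20 draws Ccr6-bearing lymphocytes and dendritic cells. Cxcl16 and Cx3cl1 are made as transmembrane proteins, which the metalloproteases Adam10 and Adam17 can shed, and bind Cxcr6 and Cx3cr1. Cxcl14 is a constitutive chemokine of many epithelia.

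The genes for the Glu-Leu-Arg chemokines lie close together on mouse chromosome 5, in the order Cxcl5, Ppbp, Pf4, Cxcl3, Cxcl15, Cxcl1 and Cxcl2 among protein-coding genes of the RefSeq annotation of GRCm38.p6. The RefSeq promoter table of that build held a window of 300 bases, from 250 before to 50 after the annotated start, for 6 of the 9 genes, Cxcl1, Cxcl2, Cxcl3, Cxcl14, Ccl20 and Cx3cl1. Cxcl5, Cxcl16 and Ccl2 had no match there. The 120 bases before the start are printed for the 3 clustered genes, for Ccl20, and for Cx3cl1 as a member that differed little between groups. They lie on the plus strand at chr5:90891125-90891244 for Cxcl1, chr5:90903779-90903898 for Cxcl2, chr5:90785981-90786100 for Cxcl3, chr1:83116646-83116765 for Ccl20 and chr8:94772060-94772179 for Cx3cl1, all in GRCm38.p6. Capitals mark bases that match the NF-kB consensus on either strand.
Cxcl1: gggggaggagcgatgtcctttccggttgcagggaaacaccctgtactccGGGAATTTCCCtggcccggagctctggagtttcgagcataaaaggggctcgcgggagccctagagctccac
Cxcl2: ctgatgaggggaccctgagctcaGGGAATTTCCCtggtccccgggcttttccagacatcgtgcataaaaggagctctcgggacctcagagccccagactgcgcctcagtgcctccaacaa
Cxcl3: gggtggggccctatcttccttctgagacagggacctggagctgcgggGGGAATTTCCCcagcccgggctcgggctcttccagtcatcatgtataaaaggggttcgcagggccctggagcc
Ccl20: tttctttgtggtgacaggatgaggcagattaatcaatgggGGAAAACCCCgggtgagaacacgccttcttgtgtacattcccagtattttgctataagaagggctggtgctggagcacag
Cx3cl1: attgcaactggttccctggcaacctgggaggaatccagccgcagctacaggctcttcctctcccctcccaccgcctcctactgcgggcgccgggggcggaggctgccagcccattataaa

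Cxcl1, Cxcl2 and Cxcl3 each held the same 10 letters, GGGAATTTCC, which began 71, 97 and 73 bases before their annotated starts. In each of them an overlapping match on the other strand, 1 base further on, extends the capitals to 11 letters. These letters were taken from the Cxcl1 window and then searched in all windows on both strands. GGGAATTTCC stood in 29 of 32851 such windows, or 0.0883%, and the wider NF-kB consensus in 8.46%. Ccl20 had 1 match to the wider consensus, on the minus strand, and the windows of Cxcl14 and Cx3cl1 had none. A match of letters is a description and not a site shown to bind a factor. Of the 29 genes with GGGAATTTCC in a window, 13 were tested, and 9 of these had a higher mean in EFNA3 libraries and 4 a lower one, with a median difference of 0.11 (log2). Those 13 include Cxcl1 (0.23), Cxcl2 (0.47), Cxcl3 (0.60) and the NF-kB inhibitor gene Nfkbia (0.31). Cxcl1, Cxcl2 and Cxcl3 were chosen with their differences known, and 50.8% of all tested genes had a higher mean. The counts and the median for these genes are therefore not read further.

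The table held 1 log2 value per gene and library, from -0.79 to 18.1 with a median of 8.10, and all libraries shared 1 distribution, so depth is unknown. The 6 libraries expressed luminal keratins and Elf5, but also the basal keratin genes Krt14, at 16.38 ± 0.05 in EFNA3 and 16.26 ± 0.08 in control libraries, and Krt5, at 14.94 ± 0.07 and 14.91 ± 0.02 (log2, SD, n = 3). EFNA3 replicate 1 stood apart by transcript length. Its mean deviation from the average of the 6 libraries was 0.22 in the shortest eighth of tested genes and -0.33 in the longest, against -0.00 to 0.01 and 0.02 to 0.05 in the other 2 EFNA3 libraries and -0.09 to -0.06 and 0.03 to 0.12 in controls. The longest coding transcripts of the 9 chemokine genes run from 813 nt (Ccl2) to 3315 nt (Cx3cl1). Cxcl1 and Ccl2 belong to the shortest eighth, which ended at 1004 nt. That library was the highest of the 6 for 7 of the 9 chemokines, and for 35.2% of all tested genes. Results are therefore also given without it and with every library corrected for transcript length and GC share.

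Levels of the 9 genes were compared per kb of the longest coding transcript, as log2 of the value per kb. Cxcl5 and Cx3cl1 were the most abundant, Cxcl14, Cxcl1 and Cxcl16 followed, and Cxcl2, Cxcl3, Ccl2 and Ccl20 were low. Cxcl5 stood at 11.77 ± 0.21 in EFNA3 and 11.32 ± 0.06 in control libraries, and Cx3cl1 at 11.37 ± 0.11 and 11.37 ± 0.02 (log2 per kb, SD, n = 3). Averaged over the 6 libraries, 97.2% of tested genes with a length lay below Cxcl5 and 96.6% below Cx3cl1 on this scale. In EFNA3 libraries every value of Cxcl5 lay above every value of Cx3cl1, by a mean of 0.40, while in controls the values of both genes overlapped, with a gap of 0.05. The order of these 2 genes depends on the transcript taken for length: with the shortest coding transcript, 377 nt for Cx3cl1, Cx3cl1 stood at 14.51 in EFNA3 and 14.50 in control libraries, above Cxcl5 in both groups. Because Cxcl5 was chosen with its difference known, this order adds nothing to that difference.

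Cxcl14, at 9.94 ± 0.06 in EFNA3 and 9.90 ± 0.08 in control libraries, lay clear of its neighbours in both groups (log2 per kb, SD, n = 3). Cxcl1, at 9.47 ± 0.30 in EFNA3 and 9.24 ± 0.10 in controls, and Cxcl16, at 9.38 ± 0.10 and 9.21 ± 0.05, overlapped in both groups, so their order is not resolved. A gap of 2.77 in EFNA3 and 3.07 in control libraries separated Cxcl16 from Cxcl2, at 6.61 ± 0.28 and 6.14 ± 0.26. Cxcl3 stood at 5.71 ± 0.12 in EFNA3 and 5.11 ± 0.23 in control libraries, and Ccl2 at 5.17 ± 0.48 and 4.57 ± 0.22. These low genes did not overlap with their neighbours in the order within either group. Ccl20 came last, at 2.58 ± 0.98 in EFNA3 and 1.57 ± 0.26 in controls. Of the summed linear level per kb of the 4 Glu-Leu-Arg chemokines, Cxcl5 made up 80.2% ± 1.2 in EFNA3 and 78.1% ± 1.6 in control libraries, and Cxcl1 16.4% ± 1.2 and 18.6% ± 1.6 (SD, n = 3). Cxcl2 and Cxcl3 made up the remainder.

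**Figure D1:**
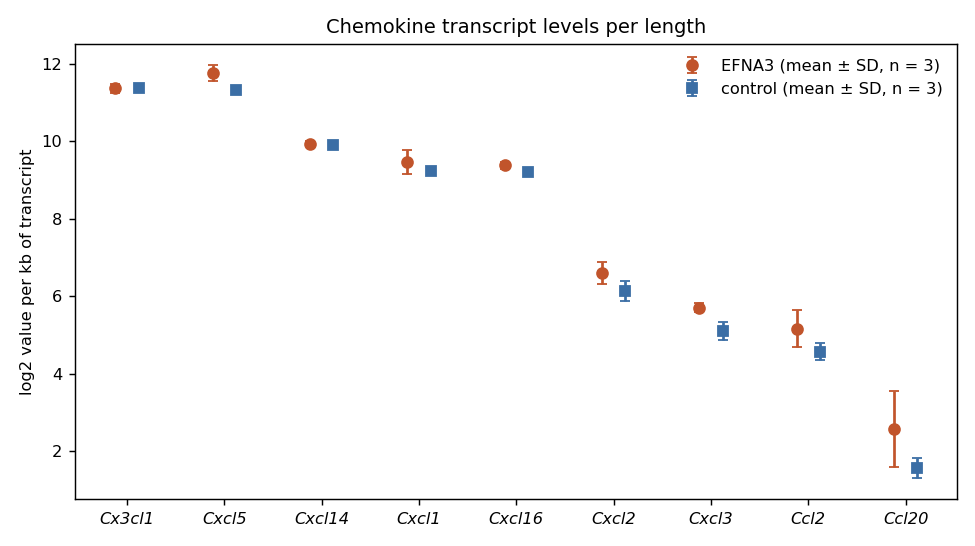
Mean log2 value per kb of the longest coding transcript for the 9 chemokine genes, with SD over 3 EFNA3 (circles) and 3 control libraries (squares), ordered by the control mean. Cxcl5 and Cx3cl1 lie above 11, Cxcl14, Cxcl1 and Cxcl16 between 9 and 10, and Ccl20 is the lowest.

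The comparison asks how EFNA3 protein alters gene expression in luminal cells. Among the 9 genes, the neutrophil chemokines Cxcl5, Cxcl3 and Cxcl2 and the monocyte chemokine Ccl2 stood 1.36-fold to 1.52-fold higher in EFNA3 libraries, while Cx3cl1 and Cxcl14 differed by 0.04 or less on the log2 scale. In all, 8 of 9 genes passed the filter on low values (a log2 value of 3.32, or 10 in linear terms, reached by 3 or more of the 6 libraries), and each of these 8 lay above it in all 6 libraries. By limma over all 16394 tested genes, 0 of these 8 had an adjusted p under 0.05, as did 0% of all tested genes, and adjusted p ran from 0.55 to 1.00. At an unadjusted limma p under 0.05 stood 3 of the 8, Cxcl5, Cxcl3 and Cxcl2, and 6.73% of all tested genes. The median difference was 0.34 over the 8 genes and 0.00 over all tested genes. In cultures measured in bulk, more RNA per cell and more cells that express a gene cannot be told apart.

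Cxcl5, the most abundant of the neutrophil chemokines, read 12.67, 12.31 and 12.29 in EFNA3 libraries, against 11.94, 11.94 and 12.04 in controls (log2, replicates 1, 2 and 3). All EFNA3 libraries lay above all controls, with replicate 1 the highest. The difference was 0.45 (SE 0.10), and 0.33 without EFNA3 replicate 1. Cxcl3 read 5.87, 5.64 and 5.70 in EFNA3 libraries, against 5.06, 4.94 and 5.39 in controls (log2, replicates 1, 2 and 3). The groups did not overlap and the 3 EFNA3 values lay close together, so this difference of 0.60 (SE 0.21) was 0.54 without EFNA3 replicate 1. Cxcl2 read 7.81, 7.28 and 7.43 in EFNA3 libraries, against 6.82, 7.33 and 6.95 in controls. Control replicate 2 lay above EFNA3 replicate 2, and the groups overlapped. Its difference was 0.47 (SE 0.19), and 0.32 without EFNA3 replicate 1.

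Cxcl1, another neutrophil chemokine of the cluster, overlapped between the groups. It read 9.73, 9.15 and 9.33 in EFNA3 libraries, against 9.23, 9.24 and 9.06 in controls (log2, replicates 1, 2 and 3). Only EFNA3 replicates 1 and 3 lay above all controls. The difference of 0.23 (SE 0.14) was 0.06 without EFNA3 replicate 1, 0.11 with the length and GC correction and 0.01 with both. For Cxcl5, Cxcl3 and Cxcl2 the values with both were 0.31, 0.48 and 0.30. Whether Cxcl1 differs from the other 3 in its response was not tested. Reads could be split between genes that share sequence. Of the 967 stretches of 50 bases in the Cxcl3 transcript, 61, or 6.31%, also occur in Cxcl2 transcripts of GENCODE. For Cxcl5, 47 of 1526, or 3.08%, occur in transcripts of 4930470B04Rik, Cd69, Gm29245 or Ilf2, while for Cxcl1 0 of 904 occur in another gene. How the authors counted such reads is not given in the sources used here.

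**Figure D2:**
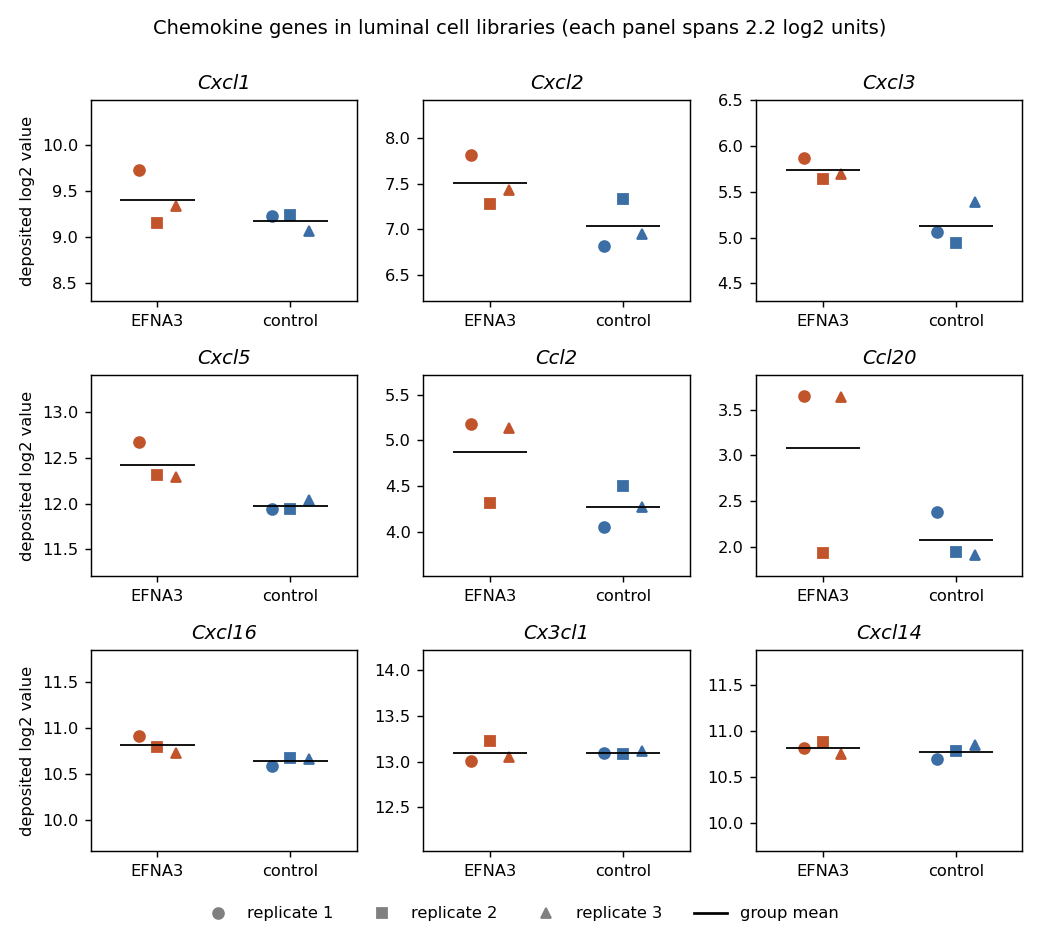
Deposited log2 value of each chemokine gene in the 3 EFNA3 (left) and 3 control libraries (right) of each panel, with a line at the group mean; symbols mark replicates 1 to 3. EFNA3 and control values do not overlap for Cxcl3, Cxcl5 and Cxcl16.

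Ccl2, the monocyte chemokine, read 5.18, 4.32 and 5.13 in EFNA3 libraries, against 4.05, 4.50 and 4.27 in controls (log2, replicates 1, 2 and 3). EFNA3 replicates 1 and 3 lay above all controls and EFNA3 replicate 2 between them. The difference was 0.60 (SE 0.32), and 0.45 without EFNA3 replicate 1. Ccl20 read 3.65, 1.94 and 3.64 in EFNA3 libraries, against 2.38, 1.95 and 1.91 in controls. It showed the same arrangement, with EFNA3 replicate 2 among the controls, but passed 3.32 in 2 libraries only and was not tested. Its group means, 3.08 and 2.08, come from the lowest part of the table, where depth is unknown.

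Ccl2 and the Glu-Leu-Arg chemokines are also made by fibroblasts and macrophages, and markers of those cells were examined beside them. Of 10 fibroblast markers 9 were in the table and tested, and 6 of the 9 had a higher mean in EFNA3 libraries, with a median difference of 0.29, beside 0.34 for the 8 chemokines. Higher were Col1a1 (0.29), Col1a2 (0.44), Col3a1 (0.60), Pdgfrb (0.44), Dcn (0.19) and Thy1 (0.94), with SEs between 0.15 and 0.79, and lower were Pdgfra (-0.22), Fbln1 (-0.31) and Fn1 (-0.24). By limma 0 of the 9 passed over all genes, and 1, Fbln1, which was lower in EFNA3 libraries, had an unadjusted p below 0.05. All EFNA3 libraries lay above all controls in 0 of the 9, against 8.53% of all tested genes. They lay below all controls in 2, Pdgfra and Fbln1, and the share of all tested genes below was not computed. Their summed log2 level ran from 12.21 to 12.88 in EFNA3 and from 12.66 to 13.00 in control libraries, most of it the fibronectin gene Fn1. Of 10 macrophage markers 6 were in the table, summing to between 13.72 and 13.98 in EFNA3 and between 13.63 and 13.79 in control libraries, almost all of it Cd14. Cd14 is also made by mammary epithelium. Cd68 stood at 7.12 ± 0.09 in EFNA3 and 7.25 ± 0.23 in controls, and the macrophage receptor gene Csf1r at 4.80 ± 0.35 and 4.39 ± 0.31 (log2, SD, n = 3). Their differences were -0.13 and 0.41. Mrc1, Lyz2 and Fcer1g did not pass the filter. Of 8 neutrophil markers only S100a8 and S100a9 were in the table, and their sum ran from 7.95 to 8.39 in EFNA3 and from 7.63 to 7.92 in control libraries, nearly all of it S100a8, which epithelia also make. Endothelial markers, 5 of 8 in the table, summed to 8.32 to 8.45 in EFNA3 and 8.36 to 8.55 in control libraries, and adipocyte markers, 7 of 8, to 9.84 to 10.20 and 10.18 to 10.52. Luminal markers, 10 of 10, summed to 16.72 to 16.94 in EFNA3 and 16.65 to 16.75 in control libraries. Of these, 9 had a higher mean in EFNA3 libraries, with a median difference of 0.19. In 3, Krt19, Krt7 and Epcam, all EFNA3 libraries lay above all controls, as for 8.53% of all tested genes. Basal markers, 8 of 8, summed to 16.98 to 17.04 in EFNA3 and 16.89 to 16.98 in control libraries, with Krt14 the highest gene. Myh11 and Cnn1 did not pass the filter, and 3 of the 6 basal markers tested had a higher mean. Of 8 lymphocyte markers 0 were matched to a row. The part of other cells in the chemokine values was not tested.

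Of the transmembrane chemokines, Cxcl16 read 10.92, 10.79 and 10.73 in EFNA3 libraries, against 10.59, 10.68 and 10.66 in controls (log2, replicates 1, 2 and 3). All EFNA3 values lay above all control values, by a narrow margin. The difference was 0.17 (SE 0.08), with 0.11 without EFNA3 replicate 1 and 0.17 with the length and GC correction. Cx3cl1 read 13.01, 13.23 and 13.05 in EFNA3 libraries, against 13.10, 13.08 and 13.12 in controls. EFNA3 replicate 2 was the highest and the other 2 EFNA3 libraries the lowest, so the groups overlapped and the means differed by 0.00 (SE 0.08). The constitutive chemokine gene Cxcl14 read 10.81, 10.88 and 10.75 in EFNA3 libraries, against 10.69, 10.78 and 10.85 in controls. These values overlapped, with a difference of 0.04 (SE 0.07).

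All 8 tested genes had a higher group mean in EFNA3 libraries, as did 50.8% of all tested genes, though the difference of Cx3cl1 rounds to 0.00. With the length and GC correction 6 of 8 did, since Cxcl14 and Cx3cl1 then stood at -0.02 and -0.01. In 3 of the 8, Cxcl3, Cxcl5 and Cxcl16, every EFNA3 library lay above every control, as for 8.53% of all tested genes. Since these genes were chosen with this contrast known, the shares are not read further. Without EFNA3 replicate 2, 6 of the 8 lay above all controls and 1, Cx3cl1, below, where 16.1% of all tested genes lay above; without control replicate 2, 5 lay above, where 11.9% of all tested genes did. Library by library, the median deviation of the 8 genes from the control mean stood at 0.62 in the first EFNA3 replicate, 0.14 in the second and 0.23 in the third, and between -0.06 and 0.02 in controls. The median difference was 0.22 without EFNA3 replicate 1 and 0.21 when the length and GC correction was applied as well.

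**Figure D3:**
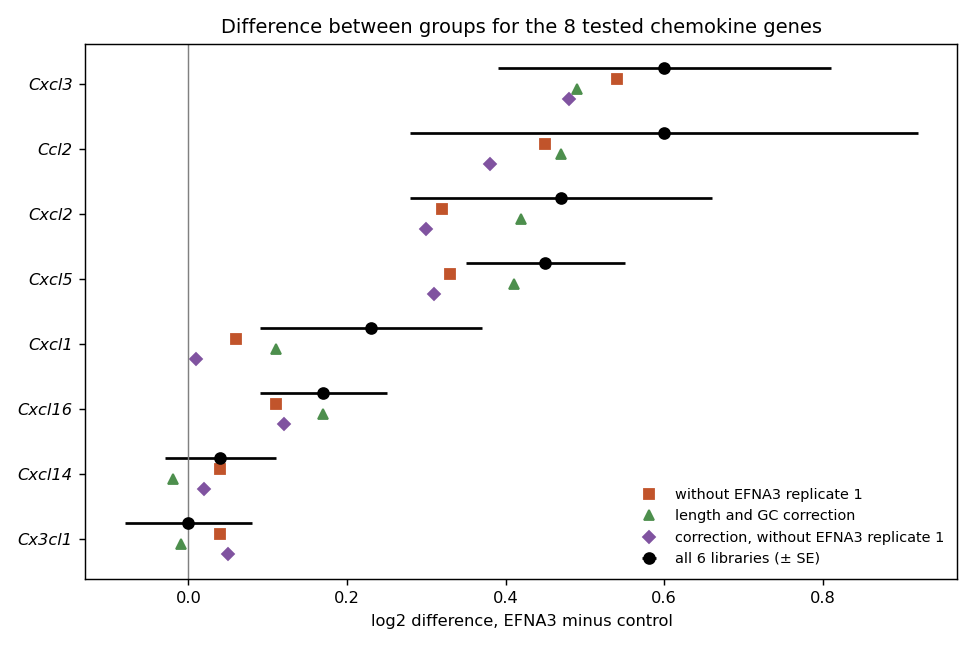
Log2 difference, EFNA3 minus control, of the 8 tested chemokine genes with all 6 libraries (black, with the limma SE), without EFNA3 replicate 1, with every library corrected for transcript length and GC share, and with both. Cxcl3, Ccl2, Cxcl2 and Cxcl5 stay at or above 0.30 in all 4, whereas Cxcl1 lies between 0.01 and 0.23.

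By likeness of profile over the 6 libraries, the 3 most variable tested chemokines had close counterparts, measured by the root mean square difference of log2 values after each gene was centred on its mean. For Ccl2 these were Pcdhb8 (0.10), the ribosomal pseudogene Rpsa-ps9 (0.12) and the ribosomal pseudogene Rpl19-ps6 (0.13). For Cxcl3 they were Efcab15 (0.09), Cmpk2 (0.10) and the interleukin gene Il36a (0.11). For Cxcl2 they were Ndufs6b (0.08), Mrps36-ps1 (0.08) and Spc24 (0.09). These are the nearest of the tested genes searched, Gm and Rik genes left out, over only 6 points, and the likeness is a description.

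Other chemokine ligands had means on both sides of no difference. Of 11 tested, 6 had a higher and 5 a lower mean in EFNA3 libraries, the median difference was 0.04 (0.17 without EFNA3 replicate 3 and -0.03 with the length and GC correction), and 0 passed limma over all genes, with 1 below an unadjusted p of 0.05. This was Cxcl10, an interferon-induced ligand of Cxcr3, at 6.83, 5.52 and 5.68 in EFNA3 and 4.48, 3.74 and 4.22 in control libraries (log2, replicates 1, 2 and 3), a difference of 1.86 (SE 0.37). Ccl9, with values near the filter of 3.32, read 3.92 to 4.05 in EFNA3 and 3.73 to 3.90 in control libraries. Its difference was 0.20 (SE 0.30). In 2 of the 11, Cxcl10 and Ccl9, all EFNA3 libraries lay above all controls, as for 8.53% of all tested genes. Cxcl12, the ligand of Cxcr4, was abundant and stood at 11.70 ± 0.04 in EFNA3 and 11.70 ± 0.10 in controls (log2, SD, n = 3). Cxcl15, which lies within the chromosome 5 cluster, differed by -0.01 (SE 0.17). The epithelial chemokines Ccl27a, Ccl25 and Ccl28 differed by 0.16, -0.09 and -0.16, and Cxcl9, Cxcl13, Cxcl17 and Ccl5 by -0.02 to 0.17. Ppbp and Ccl7, a neighbour of Ccl2 on chromosome 11, did not pass the filter.

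Few receptor genes passed the filter. Of 23 receptor genes listed, 8 were in the table. The receptors of the neutrophil chemokines, of Ccl2, of Ccl20 and of Cx3cl1 (Cxcr2, Ccr2, Ccr6 and Cx3cr1) were not matched to a row, so no level is given for them. Cxcr6, the receptor of Cxcl16, ran from 0.45 to 2.71 in EFNA3 and from 0.64 to 2.11 in control libraries, below the filter. Of 5 tested receptor genes, 0 passed limma and 0 stood at an unadjusted p under 0.05. The scavenging receptor gene Ackr3 was the most abundant of them in deposited values, which are not per length, at 9.04 ± 0.14 in EFNA3 and 9.01 ± 0.10 in control libraries (log2, SD, n = 3). Ccrl2, which binds chemerin, differed by -0.10 (SE 0.10), Cxcr4 by 0.14 (SE 0.16), Ccr10, the receptor of Ccl27a and Ccl28, by -0.29 (SE 0.31), and Ackr4 by 0.14 (SE 0.31).

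The list for chemokine shedding and surface retention had a median difference of -0.03, which was 0.02 with the length and GC correction and -0.09 without EFNA3 replicate 2. Among its 12 genes, 5 had a higher and 7 a lower mean in EFNA3 libraries, 0 passed limma and 0 stood at an unadjusted p under 0.05. The sheddases Adam10 and Adam17 stood at 13.46 ± 0.19 and 12.09 ± 0.08 in EFNA3 libraries and at 13.57 ± 0.08 and 12.09 ± 0.01 in controls. The heparan sulfate proteoglycans Sdc4 and Sdc1, which hold chemokines at the surface, differed by 0.17 (SE 0.08) and 0.13 (SE 0.09). The protease gene Dpp4, whose product trims chemokines, differed by -0.58 (SE 0.32), and the Golgi gene Glg1 by -0.34 (SE 0.17). In Dpp4 and Glg1, EFNA3 replicate 1 was the lowest of the 6 libraries, at 5.02 and 12.68.

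Regulators of chemokine transcription and mRNA decay had differences between -0.32 and 0.31. Of 14 genes of the NF-kB list, 12 had a higher mean in EFNA3 libraries, the median difference was 0.09, 0 passed limma and 1 had an unadjusted limma p below 0.05. This was Nfkbia, the inhibitor that NF-kB induces, at 11.57, 11.31 and 11.33 in EFNA3 and 11.02, 11.12 and 11.13 in control libraries, a difference of 0.31 (SE 0.09). Nfkbib differed by 0.23 (SE 0.13), Tnip1, an inhibitor of NF-kB signalling, by 0.14 (SE 0.07) and the subunit gene Relb by 0.14 (SE 0.09). Of 10 genes for mRNA decay and stability factors, 6 had a higher and 4 a lower mean, with 0 past limma and 0 at an unadjusted p under 0.05. The RNA-binding protein gene Hnrnpd differed by 0.16 (SE 0.08), Zc3h12c by -0.32 (SE 0.18), Rc3h1 by -0.16 (SE 0.10) and Elavl1, an mRNA stabiliser, by 0.07 (SE 0.08). In Zc3h12c and Rc3h1, EFNA3 replicate 1 was the lowest library, at 8.09 and 11.47.

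Among receptors and adaptors upstream of chemokine induction, lower means were the more frequent. Of 14 tested, 5 had a higher and 9 a lower mean in EFNA3 libraries, with a median of -0.06 (-0.01 with the length and GC correction, and between -0.12 without control replicate 2 and -0.03 without EFNA3 replicate 1 when 1 library was left out), 0 past limma and 1 below an unadjusted p of 0.05. This was Tlr2, a receptor of bacterial lipoproteins, at 12.10 ± 0.05 in EFNA3 and 11.93 ± 0.03 in control libraries (log2, SD, n = 3). The flagellin receptor gene Tlr5 differed by -0.26 (SE 0.12), the adaptor gene Traf6 by -0.16 (SE 0.09) and the interleukin-1 receptor gene Il1r1 by -0.13 (SE 0.07). In these 3, all EFNA3 libraries lay below all controls, with EFNA3 replicate 1 the lowest, at 8.61, 10.55 and 10.45. The share of all tested genes below all controls was not computed. In 1 of the 14, Tlr2, all EFNA3 libraries lay above all controls, as for 8.53% of all tested genes.

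**Figure D4:**
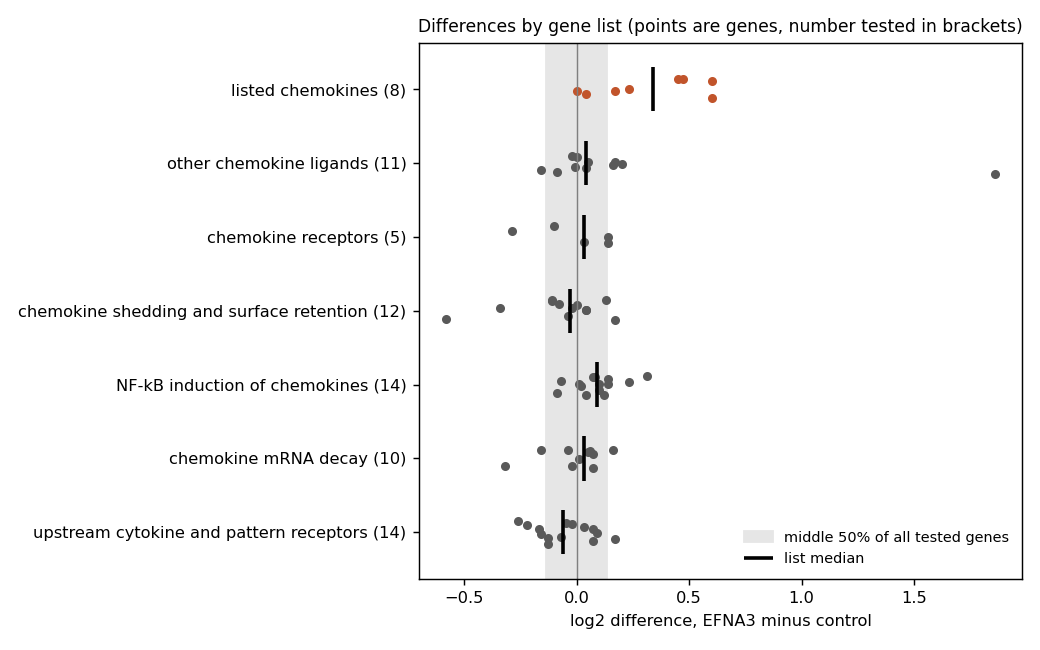
Log2 difference, EFNA3 minus control, of every tested gene in each list (points), with the list median (line) and the middle 50% of all tested genes (grey band, from -0.136 to 0.136). The listed chemokines have a median of 0.34 and the other chemokine ligands one of 0.04, with Cxcl10 alone at 1.86. The second median was 0.17 without EFNA3 replicate 3 and -0.03 with the length and GC correction.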

How the data were processed

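RNA was measured by sequencing in 6 libraries, 3 with EFNA3 and 3 control, grouped by the sample titles. Trim Galore, Subread, featureCounts and build mm39 are named in the submitters' processing notes. Not given in the sources used here are the annotation, the strand setting and the step from reads to log2 values. The header names no unit, and the values the authors deposited were taken as log2; the base is an inference from their range. Sorted columns differed by at most 0.00302, as after quantile normalization, so a shift of all genes could not be seen.

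Genes at 3.32 or more in at least 3 libraries, 16394 in all, entered a limma fit (limma 3.58.1, R 4.3.3) without transformation (pseudocount 0), with a mean-variance trend, no block, two-sided tests and Benjamini-Hochberg adjustment at 0.05. The fit was tested on simulated data. No label ties replicates to separate animals or cultures, and the p-values reflect the spread among these libraries, which may be technical. With 3 against 3 libraries, no exact permutation test can go below 0.1, and none was used. Transcript length and GC share came from GENCODE for an earlier build, from the longest coding transcript or, for genes without one, the longest of any kind, and matched 97.4% of tested genes by symbol. The correction took splines with 5 degrees of freedom in each out of every library.

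Members and lists were chosen with earlier results of these data known. Named are all members, up to 4 genes of each pathway list by smallest p, every tested receptor and other ligand, and the 3 genes nearest in profile (Gm and Rik genes left out) to each of the 3 most variable members; Adam10, Adam17, Cxcr6 and cell type markers were added for their roles. Alternatives covered the pseudocount, filter, scaling, variance model, weights, blocks, length and GC correction and leaving out each library.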

Additional observations from a re-analysis of the deposited data

How the results depend on the processing

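Under 19 alternatives, 0 of the tested chemokines passed limma over all genes, and the number tested was 9 without a filter and 7 with a filter 5 times stricter. Their median difference ran from 0.21 to 0.45, and from 0.22 to 0.43 when 1 library was left out. The number of chemokines above all controls ran from 3 to 6 when 1 library was left out. Between 10.4% and 17% of all tested genes then lay above all controls. Without EFNA3 replicate 2, Cx3cl1 lay below all controls, which makes 7 without overlap, and the share of all tested genes below was not computed. Without control replicate 2, 5 did not overlap. In each remaining alternative 3 did not overlap, and several of these, such as the variance models, leave the values themselves unchanged. Cxcl1, Cxcl2, Cxcl3, Cxcl5 and Cxcl16 kept a higher EFNA3 mean in all 19 alternatives and Ccl2 in the 18 in which it was tested. Several alternatives, such as those of the variance model, the filter and the block by title number, cannot change the group difference of a gene. These counts therefore do not measure how firm a difference is. With a replicate block by title number, 0 chemokines and 0 genes passed and Ccl2 differed by 0.60. With a replicate block by description number, 0 chemokines of the 8 passed, 71 genes overall did, 1 of them among the other chemokine ligands (Cxcl10, 1.90), and Ccl2 differed by 0.99; the cause was not tested. In that block control replicate 2 and EFNA3 replicate 2 each stand alone and add nothing to the difference. The difference thus rests on replicates 1 and 3 of each group, and the fit keeps few residual degrees of freedom. Same-numbered libraries did not deviate together (correlations of -0.11, 0.03 and -0.32 by title and -0.11 and -0.32 by description). These correlations also carry the shift of EFNA3 replicate 1 with transcript length, so they cannot decide whether the numbers pair samples. No label states such a pairing, and the main fit used none. With the longest transcript of any type, an alternative chosen after seeing the data like those of the other ligands, 5 of 9 chemokines kept their place in the order of levels per kb, since Cxcl3, at 3498 nt in place of 1016 nt, changes places with Ccl2 and Cxcl1, at 1871 nt in place of 953 nt, with Cxcl16. With the shortest coding transcript all 9 kept their place in controls. Depth is unknown, which limits most the values of Ccl20, Ccl2 and Cxcl3.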
